A study of Homo sapiens with 28 samples.

Results

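The untreated acute myeloid leukaemia line MOLM13 was compared with the untreated lines THP1 and NOMO1. The arrays were chosen from the sample labels alone, as the DMSO arrays of these lines, and numbered 6 of the 28 arrays of the series, 2 each for MOLM13, THP1 and NOMO1. The series held 7 established acute myeloid leukaemia lines on Affymetrix Human Genome U133 Plus 2.0 arrays, given in its design as biological duplicates. Every group used here had been grown for 96 hours, the control groups in 0.1% DMSO as vehicle and the treated groups in 1 µM GSK3484862. This compound inhibits DNMT1, the enzyme that copies DNA methylation to new strands. As background from general knowledge, and not from the labels, all 3 lines carry the KMT2A-MLLT3 fusion, MOLM13 carries an internal tandem duplication of FLT3, and THP1 and NOMO1 carry an activating RAS mutation. Each genotype is thus represented by 1 or 2 lines, so a mutation and all else that sets a line apart cannot be told apart. The p-values measure the spread between duplicate cultures, pooled over the 7 lines of the series, and say nothing of other FLT3-mutant or RAS-mutant leukaemias.

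FLT3 is a receptor tyrosine kinase of blood progenitors, and its internal tandem duplication makes it signal without ligand, with strong activation of the transcription factor STAT5. RAS proteins relay signals from such receptors to the RAF, MEK and ERK kinases, and ERK switches on its own inhibitors of the DUSP, Sprouty and SPRED families. The KMT2A-MLLT3 fusion recruits elongation factors and the methyltransferase DOT1L to genes such as MEIS1 and the HOXA cluster, and leukaemias that carry it often have monocytic features.

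Values are log2 probe set signals as deposited, 1 probe set per gene for 11676 genes. The array medians lay between 8.36 and 8.49 on this scale. The lowest value, 2.13, was shared by all arrays and held 1.41% to 2.53% of probe sets per array, so that a difference against an array at this floor is limited by it. Many probe sets also had a lowest value of their own that recurred unchanged, which gives identical readings in some duplicates. Identical readings add no spread, so the standard errors and p-values of genes with such readings in any line can be too small. Across genes, whose values are not independent of each other, duplicates correlated at r = 0.995 to 0.997 and arrays of different lines at 0.846 to 0.882. The number of arrays limits the precision. General myeloid markers were measured in all lines: SPI1 averaged 9.46 in MOLM13, 9.53 in THP1 and 10.2 in NOMO1, and CEBPA 13.2, 13.7 and 11.4. Of 6 measured monocyte markers and 6 granulocyte precursor markers none was near the floor in all 6 arrays. The summed level of the monocyte markers was 15.0 to 15.2 in MOLM13 and 14.9 to 17.3 in the other lines, and that of the granulocyte precursor markers 16.7 to 16.9 and 15.5 to 17.2. LYZ made up most of the monocyte sum in MOLM13, where it averaged 15.1, while CD14 averaged 2.13, S100A9 3.91, ITGAM 5.92, CSF1R 6.50 and S100A8 7.09. Of the T cell, B cell and NK cell markers 1 of 4, 2 of 4 and 1 of 3 were measured. CD3D averaged 9.16 in MOLM13, 4.87 in THP1 and 8.18 in NOMO1, and the part of other cell types in the results was not tested.

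A gene was called different when the limma adjusted p was under 0.05 and both MOLM13 arrays lay on 1 side of all 4 THP1 and NOMO1 arrays. Differences are MOLM13 minus the mean of THP1 and NOMO1, on the log2 scale, ± the standard error of the fit with 2 arrays per line. By this rule 4956 of 11676 genes (42.4%) differed, 2417 higher in MOLM13 (20.7%) and 2539 lower (21.7%). The median difference over all genes was -0.02. The adjusted p alone passed 63.6% of genes, 30% higher and 33.6% lower. At a size of at least 2-fold from the mean of the other lines 17.4% of genes were called, 6.42% higher and 11% lower. At a size of at least 2-fold from the nearer of the other lines 10.3% were called, 342 genes higher (2.93%) and 856 lower (7.33%). The counts for a group of genes below are to be read against these shares.

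The genes furthest below the other lines were GTSF1, MARCKS, CKAP4, DEFB1, TGFBI, ADGRL2, ANPEP, SPP1, S100A9, BHLHE22, FBN2 and TCEAL4, with differences from -10.77 to -9.11. GTSF1, a cofactor of the piRNA pathway that silences transposons in germ cells, read 2.13 and 2.47 in MOLM13, 13.15 and 13.06 in THP1 and 12.91 and 13.18 in NOMO1. The MOLM13 arrays lay at or just above the floor and the other 4 within a narrow band far above it, a difference of -10.77 ± 0.11 (adjusted p = 1.92e-12). MARCKS, an actin-binding substrate of protein kinase C, read 2.13 in both MOLM13 arrays, 12.68 and 12.64 in THP1 and 13.03 and 12.84 in NOMO1. It was at the floor in MOLM13, a difference of -10.67 ± 0.08 (adjusted p = 3.02e-13) that all 5 of its probe sets shared in sign. S100A9, a subunit of the myeloid protein calprotectin, read 4.01 and 3.81 in MOLM13, 11.79 and 11.37 in THP1 and 15.52 and 15.62 in NOMO1. MOLM13 was lowest without overlap, at -7.67 against THP1 and -11.66 against NOMO1. ANPEP, the aminopeptidase CD13 of myeloid cells, read 2.31 and 2.21 in MOLM13, 12.36 and 12.41 in THP1 and 11.89 and 11.70 in NOMO1. The THP1 and NOMO1 arrays stood close together and MOLM13 near the floor, -9.83 ± 0.19 (adjusted p = 1.52e-10) apart.

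TGFBI, a secreted adhesion protein, read 3.42 and 3.48 in MOLM13, 14.04 and 13.98 in THP1 and 13.32 and 13.26 in NOMO1, with MOLM13 far below the close values of the others, at -10.56 against THP1 and -9.84 against NOMO1. SPP1, the cytokine and matrix protein osteopontin, was at or beside the floor in MOLM13 and read 10.1 and 8.86 in THP1 and 14.3 and 14.2 in NOMO1. DEFB1, a beta-defensin, was near the floor in MOLM13 and stood at -10.48 relative to the other lines. FBN2, a fibrillin of microfibrils, and BHLHE22, a basic helix-loop-helix transcription factor, differed by -9.11 ± 0.10 and -9.22 ± 0.07. BHLHE22 also separated the RAS-mutant lines from each other, with 13.6 in both THP1 arrays and 9.52 and 9.33 in NOMO1. CKAP4, a membrane protein of the endoplasmic reticulum, ADGRL2, a latrophilin receptor, and TCEAL4 differed by -10.52 ± 0.21, -10.16 ± 0.47 and -9.11 ± 0.09. All 12 were far below both other lines, the smallest gap to the nearer line being that of BHLHE22 against NOMO1 (-7.13).

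**Figure D1:**
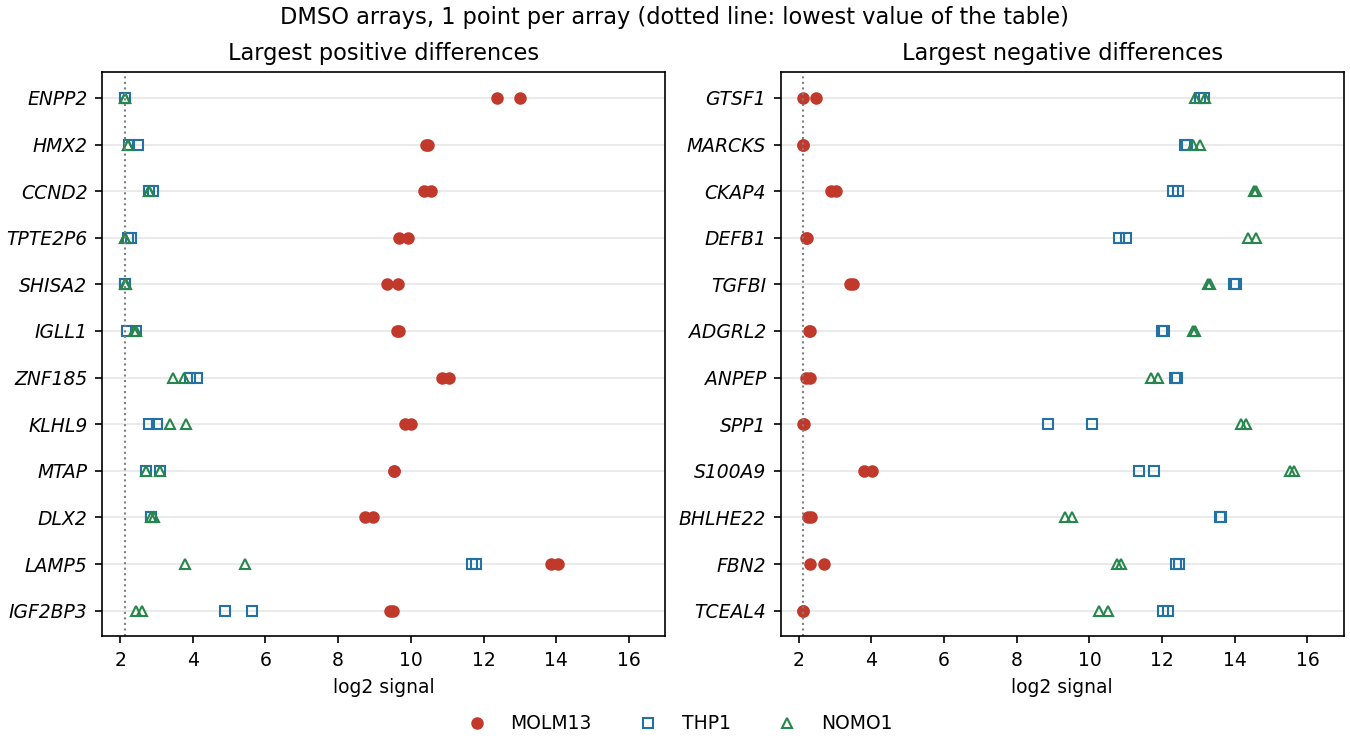
Log2 signal in each DMSO array for the 12 called genes with the largest positive (left) and the 12 with the largest negative (right) differences, 1 point per array, with the shared floor of 2.13 as a dotted line. The MOLM13 points stand apart from the other 4 arrays in every row. LAMP5 and IGF2BP3 on the left also separate THP1 from NOMO1, as do S100A9, SPP1, DEFB1, BHLHE22 and CKAP4, among others, on the right.

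On the side of higher signal in MOLM13 stood ENPP2, HMX2, CCND2, TPTE2P6, SHISA2, IGLL1, ZNF185, KLHL9, MTAP, DLX2, LAMP5 and IGF2BP3, with differences from 5.57 to 10.55. ENPP2, which codes for autotaxin, the secreted enzyme that makes lysophosphatidic acid, read 12.37 and 13.01 in MOLM13, 2.13 in both THP1 arrays and 2.13 and 2.14 in NOMO1. It was measured in MOLM13 and at or beside the floor in THP1 and NOMO1, a difference of 10.55 ± 0.14 (adjusted p = 1.28e-11). CCND2, a D-type cyclin and a known STAT5 target, read 10.36 and 10.55 in MOLM13, 2.79 and 2.90 in THP1 and 2.79 in both NOMO1 arrays. Against THP1 and NOMO1 the MOLM13 arrays stood alone, 7.63 ± 0.23 (adjusted p = 2.84e-09) higher, although 1 of its 4 probe sets had the opposite sign. In the other untreated lines of the series CCND2 was measured as well, averaging 13.3 in GDM1, 7.86 in SKM1, 12.2 in SKNO1 and 10.7 in SHI1. The homeobox genes HMX2 and DLX2 differed by 8.15 ± 0.62 and 5.98 ± 0.10, with every THP1 and NOMO1 array under 3 for both. IGLL1, the surrogate light chain of the pre-B cell receptor, averaged 9.64 in MOLM13 and was under 3 in the other arrays, 7.28 ± 0.09 apart. Its sequence resembles the immunoglobulin lambda genes, and TPTE2P6 is a pseudogene with close copies, so the gene behind either signal is uncertain.

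SHISA2, which acts on receptor maturation in the endoplasmic reticulum, was 7.35 ± 0.32 higher and at or beside the floor in the other lines. ZNF185, a LIM-domain protein of the actin cytoskeleton, was 7.14 ± 0.11 higher. MTAP, the enzyme that recycles methylthioadenosine, read 9.54 and 9.52 in MOLM13, 3.11 and 2.71 in THP1 and 3.11 and 2.71 in NOMO1. KLHL9, an adaptor of a ubiquitin ligase and its measured neighbour on chromosome 9, read 10.02 and 9.84 in MOLM13, 2.80 and 3.01 in THP1 and 3.37 and 3.80 in NOMO1. Both genes were measured in MOLM13 and low in both other lines, with differences of 6.63 ± 0.13 and 6.69 ± 0.12. They were also measured in every DMSO array of the remaining lines of the series, MTAP at 9.28 to 10.90 and KLHL9 at 11.34 to 12.00. The low signal thus set THP1 and NOMO1 apart, and KLHL9 was lower in MOLM13 than in those remaining lines. LAMP5, a lysosome-associated membrane protein, read 13.86 and 14.05 in MOLM13, 11.69 and 11.80 in THP1 and 5.44 and 3.79 in NOMO1. MOLM13 was highest, but THP1 lay far nearer to it than NOMO1 did, with differences of 2.20 against THP1 (adjusted p = 0.000756) and 9.34 against NOMO1 (adjusted p = 3.07e-08). IGF2BP3, an oncofetal RNA-binding protein, differed by 4.21 against THP1 and 6.94 against NOMO1.

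**Figure D2:**
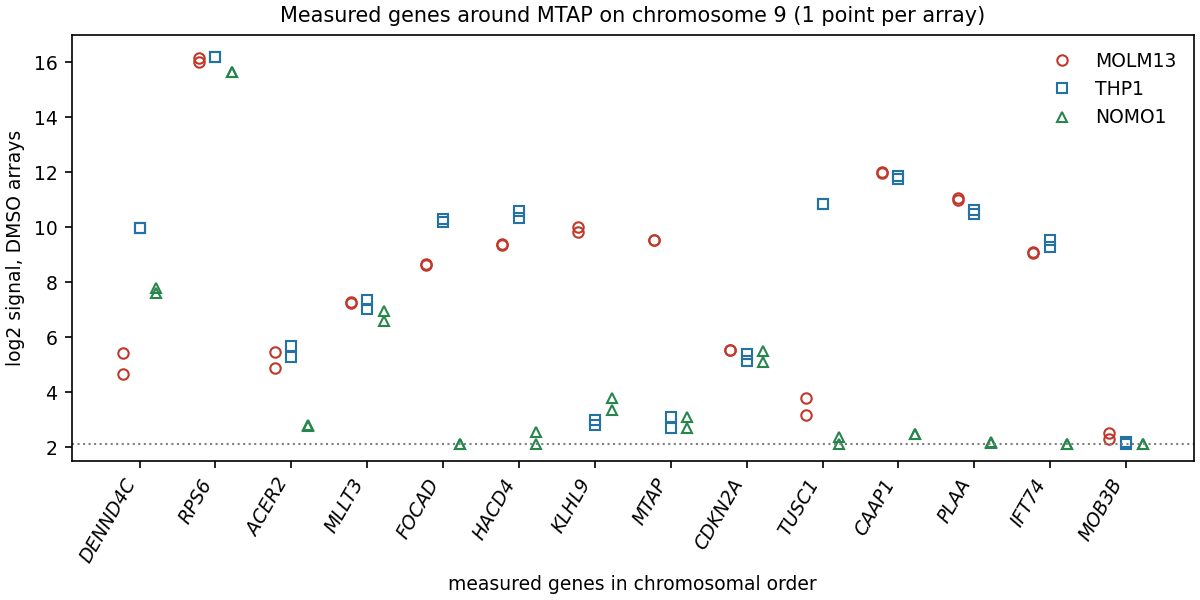
Log2 signal in each DMSO array for measured genes in chromosomal order around MTAP on chromosome 9, 1 point per array, with the shared floor of 2.13 as a dotted line. KLHL9 and MTAP are measured in MOLM13 and low in both other lines. The NOMO1 points lie at or near the floor from FOCAD to the end of the genes shown. KLHL9 and MTAP lie slightly above it there and CDKN2A higher, at the low end of its probe set.

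Promoter sequence is printed for 3 of the genes furthest below the other lines, because GTSF1 and S100A9 had a higher signal in treated than in DMSO MOLM13 and MARCKS stayed at the floor there. The windows are the 250 bases before the RefSeq start on GRCh38.p14, on the gene's own strand: chr12:54473603-54473852 (minus strand) for GTSF1, chr6:113857095-113857344 (plus) for MARCKS and chr1:153357604-153357853 (plus) for S100A9. Capitals mark every CG, the pair of bases at which DNMT1 copies methylation and which reads the same on both strands.
GTSF1: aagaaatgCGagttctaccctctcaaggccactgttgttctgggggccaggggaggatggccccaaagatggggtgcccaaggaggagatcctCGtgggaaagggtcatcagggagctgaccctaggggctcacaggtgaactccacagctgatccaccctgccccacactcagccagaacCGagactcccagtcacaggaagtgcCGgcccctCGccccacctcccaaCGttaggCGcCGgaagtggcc
MARCKS: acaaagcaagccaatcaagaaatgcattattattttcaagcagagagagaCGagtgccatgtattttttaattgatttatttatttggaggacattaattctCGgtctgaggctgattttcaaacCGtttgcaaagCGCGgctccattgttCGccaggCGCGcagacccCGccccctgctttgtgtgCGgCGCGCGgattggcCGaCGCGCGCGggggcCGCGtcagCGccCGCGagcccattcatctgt
S100A9: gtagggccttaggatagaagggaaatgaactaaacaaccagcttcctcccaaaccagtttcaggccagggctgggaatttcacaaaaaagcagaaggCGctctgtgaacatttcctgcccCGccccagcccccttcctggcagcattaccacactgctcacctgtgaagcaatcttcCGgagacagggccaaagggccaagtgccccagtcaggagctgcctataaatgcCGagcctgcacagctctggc
The windows held 8 CG pairs for GTSF1, 23 for MARCKS and 4 for S100A9. Over 35116 RefSeq windows of this length the median was 11, and 56.3%, 25.8% and 70.7% of windows held as many as these or more. Methylation was not measured, and the counts describe the letters only.

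FLT3 itself differed in the receptor group. It read 12.35 and 12.24 in MOLM13, 9.40 and 9.52 in THP1 and 8.49 and 8.71 in NOMO1, without overlap, 9.61-fold higher on the linear scale and 3.27 ± 0.20 (adjusted p = 4.34e-07) on the log2 scale. Of 21 measured receptor kinases and growth factor receptors, 2 were called higher and 8 lower, with a median of -0.62. KIT, the stem cell factor receptor, read 3.14 in both MOLM13 arrays, 9.37 and 9.49 in THP1 and 10.01 and 10.38 in NOMO1, a difference of -6.68 ± 0.22 (adjusted p = 5.9e-09) in which MOLM13 was at the lowest value of the probe set. Its ligand KITLG read 3.48 and 3.47 in MOLM13, 10.29 and 10.17 in THP1 and 7.36 and 6.80 in NOMO1, also lowest in MOLM13 at -5.19 ± 0.26. FGFR1 differed by -3.24 ± 0.18, a sign that 5 of its 6 probe sets shared. It differed by 0.57 without probe sets whose names end in _x_at, _s_at or _a_at. The receptor subunit other than FLT3 that was called higher was IL3RA, the interleukin-3 receptor alpha chain CD123, which read 8.88 and 9.12 in MOLM13, 6.93 and 7.21 in THP1 and 6.90 and 7.16 in NOMO1 (named after its values were seen). It stood 1.95 ± 0.12 (adjusted p = 4.67e-07) above the other lines, while its partner CSF2RB stood at -1.39 ± 0.12 and the macrophage receptor CSF1R at -2.14 ± 0.16.

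Of 24 measured genes of the STAT5 pathway, 8 were higher and 3 lower, and the median was 0.07. It was 0.51 against THP1 alone, 0.07 against NOMO1 alone and 0.20 under quantile normalization. The 4 with the largest differences were CCND2, SOCS2, SOCS1 and CISH, the SOCS genes and CISH being feedback inhibitors of cytokine signalling that STAT5 induces. CISH read 9.68 and 9.76 in MOLM13, 7.83 and 7.90 in THP1 and 7.54 and 7.57 in NOMO1, a higher level in MOLM13 than in either line, by 2.01 ± 0.08 (adjusted p = 2.66e-08). SOCS1 read 6.70 and 6.84 in MOLM13, 3.70 and 3.91 in THP1 and 4.07 and 4.13 in NOMO1, with the same order and a difference of 2.81 ± 0.26 (adjusted p = 1.01e-05). SOCS2 read 13.23 and 13.33 in MOLM13, 5.92 and 6.16 in THP1 and 12.56 and 12.65 in NOMO1. There the gap lay mainly toward THP1, with 7.24 against THP1 (adjusted p = 6.5e-09) and 0.67 against NOMO1 (adjusted p = 0.0355). PIM1, a kinase gene induced by STAT5, was not called and read 7.63 and 7.99 in MOLM13, 6.40 and 6.55 in THP1 and 9.83 and 9.46 in NOMO1, between the others at 1.34 against THP1 (adjusted p = 2.6e-05) and -1.83 against NOMO1 (adjusted p = 2.93e-06). The 3 lower members, named after their values were seen, were BCL2L1 (-0.65), BCL6, which STAT5 represses (-1.35), and ID2 (-1.47).

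The measured genes of RAS signalling were more often lower, 13 of 36 against 5 higher, with a median of -0.36. That median was -0.01 against THP1 alone. RRAS2, a RAS-related GTPase, read 2.13 in both MOLM13 arrays, 9.38 and 9.26 in THP1 and 9.27 and 9.06 in NOMO1. It was at the floor in both MOLM13 arrays and high in both other lines, -7.11 ± 0.17 (adjusted p = 6.92e-10) apart. GAB1, a docking protein that links receptors to RAS and PI3K, was also near the floor in MOLM13, at -3.73 ± 0.20. RASAL2, a GTPase-activating protein that switches RAS off, differed by -2.94 against THP1 and -0.70 against NOMO1, and RASA3, another of that kind, was higher by 1.37 ± 0.09.

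Genes that ERK induces, its own brakes among them, were called in both directions, at shares near those of all genes. Of 31 measured feedback and target genes 6 were higher (19.4%) and 8 lower (25.8%), beside 20.7% and 21.7% of all genes. Their median was 0.90 against THP1 and -0.88 against NOMO1. DUSP6, the phosphatase that inactivates ERK, read 9.34 and 9.37 in MOLM13, 11.46 and 11.33 in THP1 and 12.39 and 12.21 in NOMO1. Both MOLM13 arrays lay below all others, at -2.49 ± 0.17 (adjusted p = 9.24e-07). SPRY2, a Sprouty inhibitor, read 8.26 and 8.31 in MOLM13, 9.95 and 9.97 in THP1 and 10.17 and 10.11 in NOMO1, and was lower in the same way, at -1.76 ± 0.06 (adjusted p = 5.9e-09). SPRY4 read 4.26 and 4.27 in MOLM13, 4.43 and 4.34 in THP1 and 6.02 and 8.78 in NOMO1, with differences of -0.12 against THP1 (adjusted p = 0.912) and -3.14 against NOMO1 (adjusted p = 0.00209), so its call rested on NOMO1, whose arrays were far apart. It was not called under quantile normalization (-1.21, limma adjusted p = 0.0939) or in a limma fit of the 6 arrays alone (adjusted p = 0.141). SPRED1, an inhibitor of RAF activation, read 8.30 and 7.61 in MOLM13, 2.13 and 2.69 in THP1 and 7.01 and 4.88 in NOMO1. It was higher in MOLM13, at 5.54 against THP1 (adjusted p = 1.47e-05) and 2.01 against NOMO1 (adjusted p = 0.00992), and SPRY1, named after its values were seen, stood at 2.73 ± 0.30. ETV5, an ETS factor downstream of ERK, was not called and read 9.42 and 9.68 in MOLM13, 8.18 and 7.73 in THP1 and 10.04 and 10.06 in NOMO1, between the other lines.

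Among ERK target genes outside the feedback families, CCND1, the cyclin D1 gene, read 3.05 and 2.81 in MOLM13, 5.22 and 6.43 in THP1 and 7.20 and 6.79 in NOMO1. MOLM13 was lowest, at -3.48 ± 0.31 (adjusted p = 6.73e-06), the reverse of CCND2. UPP1, uridine phosphorylase, differed by -3.87 ± 0.13. JUN, a subunit of AP-1, stood at -4.34 ± 0.20, a sign that all 4 of its probe sets shared. Without the _x_at, _s_at and _a_at probe sets it was -0.20 and not called.

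**Figure D3:**
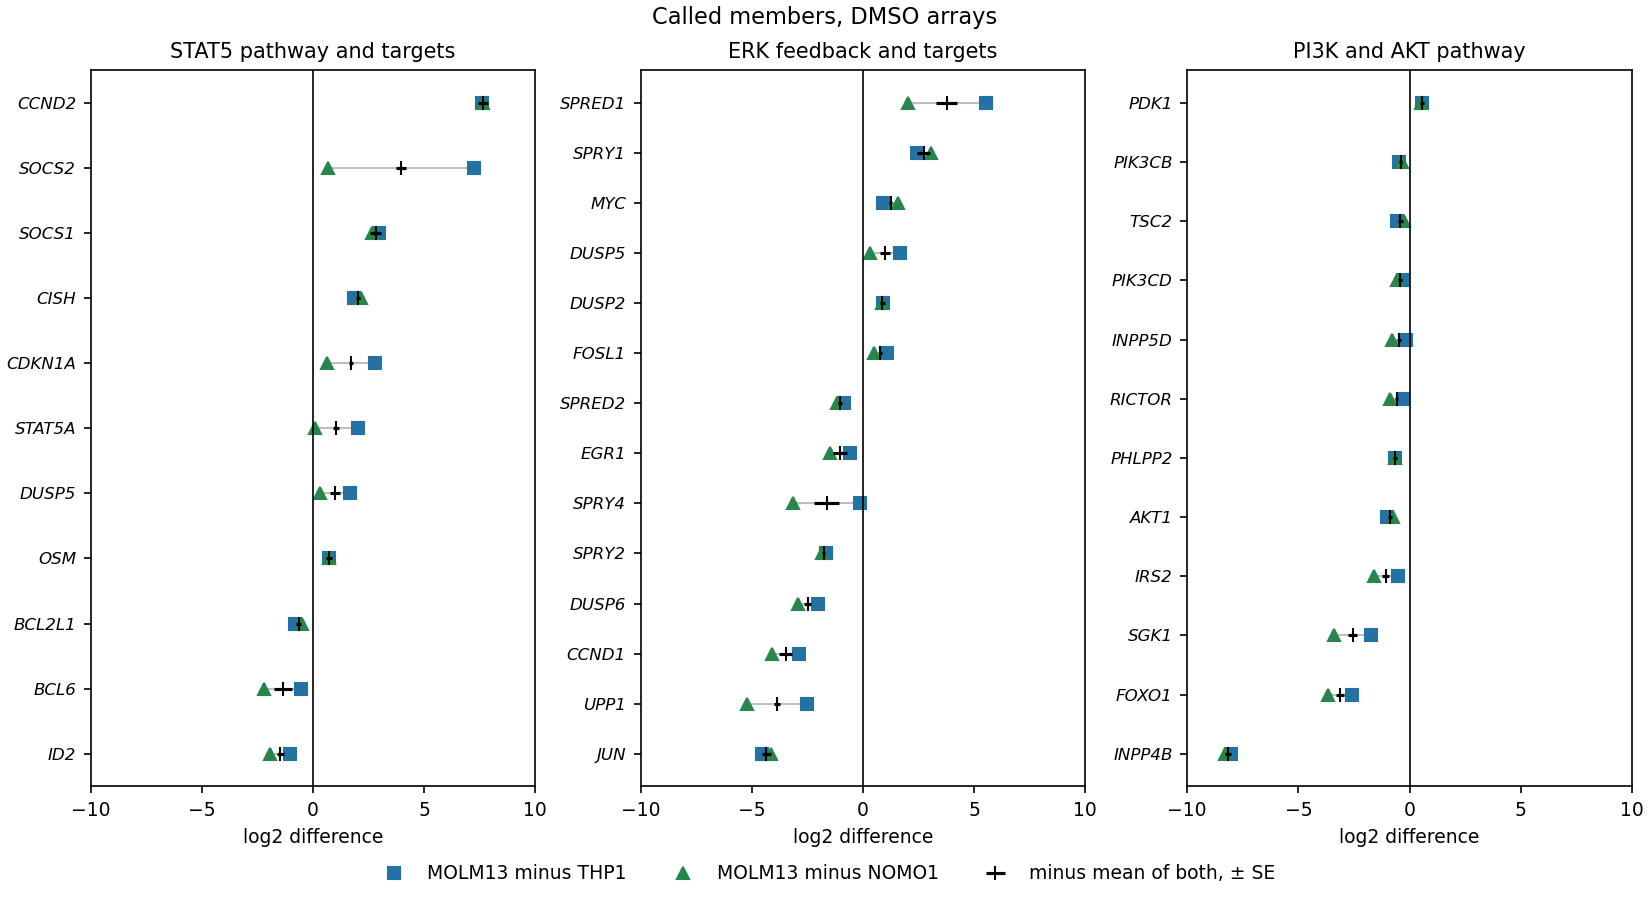
Called members of the STAT5, ERK and PI3K and AKT lists, as log2 differences of MOLM13 from THP1 (squares), from NOMO1 (triangles) and from the mean of both (ticks, with the standard error as a bar). Most PI3K and AKT genes lie left of 0 and the ERK genes fall on both sides; SOCS2 and SPRED1 lie far from THP1 and nearer to NOMO1.

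In the PI3K and AKT list 11 of 26 measured genes were lower and 1 was higher, with a median of -0.36. INPP4B, a phosphatase of phosphoinositides, read 2.55 in both MOLM13 arrays, 10.57 and 10.55 in THP1 and 10.83 and 10.89 in NOMO1. The MOLM13 arrays held the lowest value of its probe set, a difference of -8.16 ± 0.14 (adjusted p = 5.14e-11). FOXO1, a transcription factor that AKT keeps out of the nucleus, read 4.34 and 4.68 in MOLM13, 6.99 and 7.17 in THP1 and 8.35 and 8.02 in NOMO1, and differed by -3.12 ± 0.18 (adjusted p = 3.11e-07). SGK1, a kinase related to AKT, and IRS2, an adaptor of the insulin receptor, stood at -2.56 ± 0.20 and -1.08 ± 0.16. The 1 list member called higher was PDK1 (named after its value was seen, 0.55). It codes for a pyruvate dehydrogenase kinase, a metabolic enzyme and not a kinase of this pathway.

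The partner genes of the fusion were not called. KMT2A read 7.68 and 7.55 in MOLM13, 8.80 and 8.76 in THP1 and 7.08 and 7.23 in NOMO1, between the other lines, with -1.16 against THP1 (adjusted p = 2.35e-06) and 0.46 against NOMO1 (adjusted p = 0.00135). MLLT3 read 7.27 and 7.24 in MOLM13, 7.03 and 7.34 in THP1 and 6.94 and 6.58 in NOMO1, a difference of 0.29 ± 0.16 (adjusted p = 0.143), and the probe sets lie on both sides of a fused gene's breakpoint in ways not resolved here. Of 21 measured genes of the elongation and DOT1L complexes 7 were higher and 2 lower, with a median of 0.29 (0.07 against THP1 and 0.49 against NOMO1). MLLT6 and MLLT10, PHD-finger partners of DOT1L, differed by 0.99 ± 0.13 and 0.80 ± 0.09. ELL2, an elongation factor, read 5.62 and 4.70 in MOLM13, 10.08 and 9.99 in THP1 and 11.17 and 10.55 in NOMO1, far lower in MOLM13 at -5.29 ± 0.26 (adjusted p = 1.02e-07). AFF4, the scaffold of the super elongation complex, stood at -0.68 ± 0.13.

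Of 21 measured target genes of KMT2A fusions 2 were higher and 7 lower. Their median was -0.01 and turned positive under quantile normalization (0.13) and centring (0.05). MEIS1, the homeobox cofactor of HOXA9, read 10.51 and 10.59 in MOLM13, 2.13 in both THP1 arrays and 10.24 and 10.33 in NOMO1. It was at the floor in THP1 only, so its call against the mean rested on that line, with 8.42 against THP1 (adjusted p = 1.58e-10) and 0.26 against NOMO1 (adjusted p = 0.216). PBX3, a partner of MEIS1, was not called and lay between the others, at -0.80 against THP1 (adjusted p = 2.05e-05) and 0.62 against NOMO1 (adjusted p = 0.000127). HOXB3 was -1.93 against THP1 and -0.11 against NOMO1, and CDK6, a G1 kinase, -0.13 against THP1 and -1.28 against NOMO1. Adjusted p was 0.554 for HOXB3 against NOMO1 and 0.153 for CDK6 against THP1. HOXA9 was not analysed here.

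Cell cycle genes differed in part. Of 50 measured S-phase genes 21 were higher (42%) and 1 lower, with a median of 0.26. PCNA, the clamp of DNA polymerase, read 15.05 and 15.02 in MOLM13, 13.42 and 13.46 in THP1 and 14.22 and 14.10 in NOMO1, higher in MOLM13 by 1.24 ± 0.06 (adjusted p = 5.94e-08). GMNN, the licensing inhibitor geminin, and MCM10, a replication initiation factor, were higher by 1.33 ± 0.07 and 1.14 ± 0.11. CDT1, a licensing factor, was higher by 0.93 ± 0.08 on its main probe set, while its second probe set had the opposite sign. The 1 lower member was TK1, thymidine kinase (named after its value was seen, -0.62). Of 56 measured G2 and mitosis genes 9 were higher (16.1%) and 3 lower (5.36%), both shares under those of all genes. CDC25B, a phosphatase that activates CDK1, had the largest difference, 2.68 against THP1 and 0.63 against NOMO1. BUB3, CKS2 and NCAPD2 differed by 0.88 ± 0.07, 0.84 ± 0.08 and 0.82 ± 0.11.

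Among cyclins, CDK inhibitors and the RB family 8 of 22 measured genes were higher and 3 lower, with a median of 0.49. CDKN1A, the CDK inhibitor p21, read 11.65 in both MOLM13 arrays, 8.81 and 8.96 in THP1 and 11.08 and 10.96 in NOMO1. MOLM13 was highest, at 2.77 against THP1 (adjusted p = 4.1e-08) and 0.63 against NOMO1 (adjusted p = 0.00119). CDKN2A, the INK4A and ARF gene, was not called and read 5.53 and 5.54 in MOLM13, 5.38 and 5.15 in THP1 and 5.50 and 5.10 in NOMO1, about alike in all 6 arrays. With quantile-normalized arrays CDKN2A (0.57) and MLLT3 (0.42) were called higher. Ribosome biogenesis and MYC target genes were the list with the largest share called higher, 29 of 38 measured members (76.3%) with 0 lower and a median of 0.65. MYC itself read 13.90 and 13.72 in MOLM13, 12.96 and 12.81 in THP1 and 12.12 and 12.37 in NOMO1 (named after its values were seen), highest in MOLM13 by 1.24 ± 0.09 (adjusted p = 1.16e-06). MYBBP1A, a nucleolar protein, read 10.66 and 10.40 in MOLM13, 8.37 and 8.40 in THP1 and 9.11 and 9.05 in NOMO1 and differed by 1.80 ± 0.10 (adjusted p = 3.4e-07). NOP2, a methyltransferase of ribosomal RNA, read 11.01 and 10.87 in MOLM13, 9.03 and 9.02 in THP1 and 9.49 and 9.80 in NOMO1, 1.61 ± 0.10 (adjusted p = 6.65e-07) higher. NPM3, a nucleolar chaperone, was higher by 2.55 against THP1 and 0.82 against NOMO1. POLR1A, the large subunit of RNA polymerase I, was higher by 1.73 ± 0.12, but the 2 other probe sets had the opposite sign, and the mean of all 3, with a difference of 0.04, was not called. In the treated arrays 23 members were called higher and 2 lower.

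**Figure D4:**
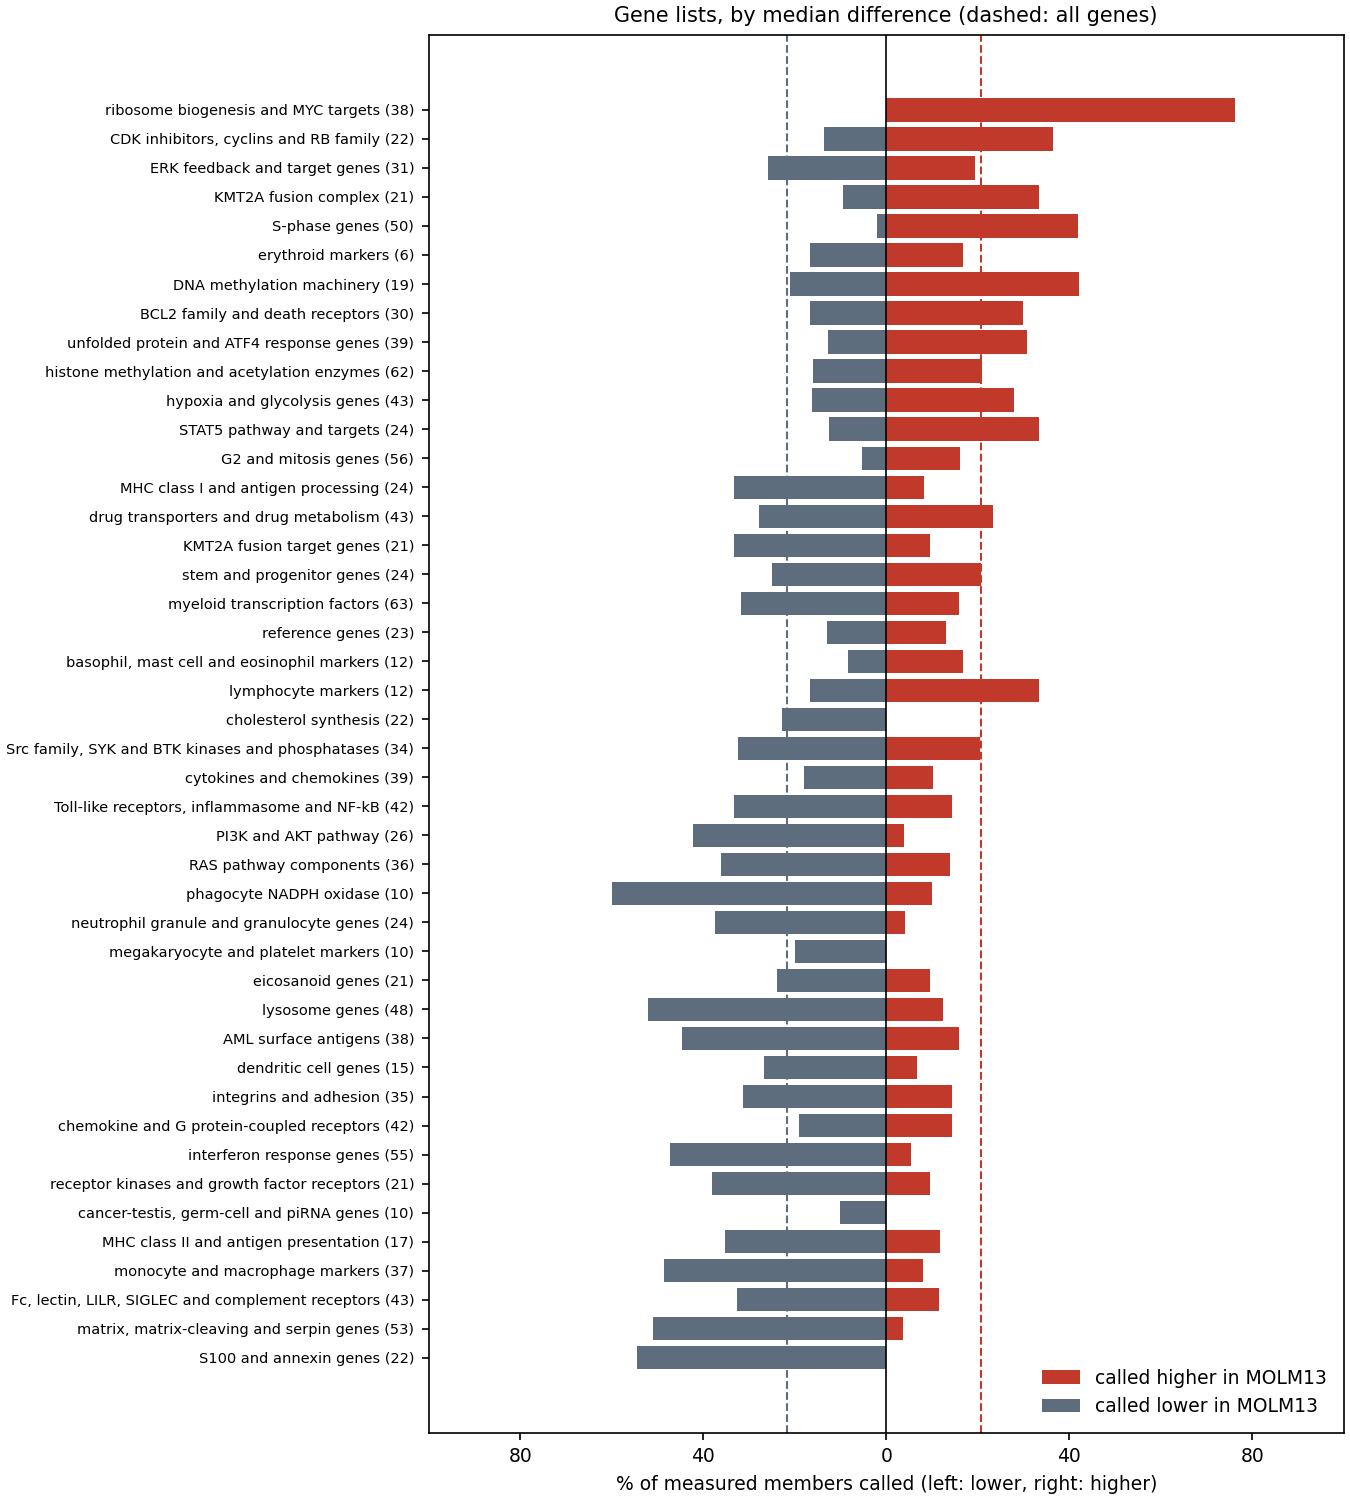
Share of the measured members of each gene list called higher (right) or lower (left) in MOLM13, with the number measured in brackets and the shares over all genes, 20.7% and 21.7%, as dashed lines. Lists are ordered by their median difference, from ribosome biogenesis at the top to S100 and annexin genes at the bottom.

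Monocyte genes were lower more often than higher. Of 37 measured monocyte and macrophage markers 18 were lower (48.6%) and 3 higher, with a median of -0.92, and 11 of the lower ones differed by at least 2-fold from the nearer line. S100A8, the partner of S100A9, read 7.14 and 7.04 in MOLM13, 13.74 and 13.32 in THP1 and 15.75 and 15.87 in NOMO1, lowest in MOLM13 at -7.58 ± 0.18 (adjusted p = 4.74e-10). S100A12 read 2.37 and 2.93 in MOLM13, 6.88 and 4.79 in THP1 and 13.47 and 13.78 in NOMO1, in the order MOLM13, THP1, NOMO1, with -3.18 against THP1 and -10.98 against NOMO1. ITGAM, the integrin CD11b, read 5.38 and 6.47 in MOLM13, 9.72 and 9.80 in THP1 and 13.50 and 13.33 in NOMO1, -5.67 ± 0.48 (adjusted p = 5.33e-06). CD14, the co-receptor for lipopolysaccharide, was at the floor in both MOLM13 arrays and read 7.78 and 7.21 in THP1 and 4.34 and 4.31 in NOMO1. LYZ, lysozyme, was not called and read 15.24 and 15.00 in MOLM13, 14.24 and 13.92 in THP1 and 15.32 and 15.18 in NOMO1, high in all arrays. The 3 higher members, named after their values were seen, were FGL2 (2.91), LILRB1 (1.58) and LILRB3 (0.75).

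Granulocyte genes followed, with 9 of 24 measured members lower, 1 higher and a median of -0.40. CEACAM6, an adhesion molecule of neutrophils whose probe sets can share sequence with its relatives, read 3.84 and 3.15 in MOLM13, 10.55 and 10.64 in THP1 and 12.95 and 12.89 in NOMO1 and differed by -8.26 ± 0.19 (adjusted p = 4.96e-10). DEFA4, a granule defensin, read 3.44 and 3.49 in MOLM13, 7.17 and 6.96 in THP1 and 13.17 and 13.41 in NOMO1, at -3.60 against THP1 and -9.82 against NOMO1. FPR2, a receptor for formylated peptides, and HK3, a myeloid hexokinase, were -5.07 ± 0.25 and -5.03 ± 0.18 apart from the mean, with NOMO1 far above THP1 for both. MPO, myeloperoxidase, was not called and read 11.85 and 11.61 in MOLM13, 6.84 and 7.03 in THP1 and 13.73 and 13.48 in NOMO1, between the others. The 1 higher member was PRTN3, proteinase 3 (named after its value was seen, 2.24). PRG2, the eosinophil granule major basic protein, read 14.15 and 14.23 in MOLM13, 5.14 and 3.43 in THP1 and 12.68 and 13.30 in NOMO1, with differences of 9.90 against THP1 (adjusted p = 9.78e-08) and 1.20 against NOMO1 (adjusted p = 0.0549), so that its call rested on THP1. GATA2, a progenitor transcription factor, was higher by 0.94 ± 0.07.

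S100 and annexin genes were the list with the lowest median, -1.28. Of 22 measured members 12 were lower (54.5%) and 0 higher, and 11 of the 12 by at least 2-fold from the nearer line. S100P, a calcium-binding protein, read 2.88 and 3.60 in MOLM13, 8.58 and 8.95 in THP1 and 11.12 and 11.48 in NOMO1, a difference of -6.80 ± 0.24 (adjusted p = 9e-09). Genes of the extracellular matrix, its proteases and the serpins followed, with 27 of 53 measured members lower (50.9%), 2 higher and a median of -1.24. SERPINE2, an inhibitor of thrombin and plasminogen activators, read 2.17 and 2.40 in MOLM13, 9.52 and 9.26 in THP1 and averaged 13.08 in NOMO1. It was near the floor in MOLM13 and differed by -8.96 ± 0.15 (adjusted p = 5.96e-11). The 2 higher members were PLAU, urokinase (1.72), and ADAM9 (1.00), named after their values were seen. In the treated arrays the S100 and annexin list had 8 members called lower and 1 higher, and the matrix list 22 and 4.

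Surface antigens that are used to type or target leukaemic cells were lower more often than higher, with 17 of 38 measured lower (44.7%) and 6 higher (15.8%). ADGRE2, an adhesion receptor of myeloid cells, read 10.19 and 10.29 in MOLM13, 5.09 and 4.62 in THP1 and 5.49 and 4.04 in NOMO1, 5.43 ± 0.39 (adjusted p = 1.45e-06) higher. Without the _x_at, _s_at and _a_at probe sets it was 0.63 and not called. NCAM1, the adhesion molecule CD56, read 8.97 and 8.91 in MOLM13, 2.34 and 2.35 in THP1 and 6.46 and 6.29 in NOMO1, highest in MOLM13 by 6.59 against THP1 and 2.56 against NOMO1. FERMT3, the integrin activator kindlin-3, and ITGA6 stood at -2.98 ± 0.11 and -2.94 ± 0.35, within an integrin and adhesion list of 11 lower and 5 higher out of 35. The median of that list was 0.0044 against THP1 and -0.95 against NOMO1. CD33 and CD34 were not analysed here. Lymphocyte markers were 4 higher and 2 lower of 12 measured. CD4 read 9.93 and 9.97 in MOLM13, 9.51 and 9.36 in THP1 and 5.16 and 4.32 in NOMO1, with 0.52 against THP1 (adjusted p = 0.199) and 5.21 against NOMO1 (adjusted p = 5.9e-07), and EBF1, a B cell factor, was at the floor in MOLM13 at -3.41 ± 0.41.

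Of 43 measured Fc, lectin, LILR, SIGLEC and complement receptors 14 were lower and 5 higher. Their median of -1.10 was 0.0019 against THP1 alone and -1.75 against NOMO1 alone. FCER1G, the signalling chain of Fc receptors, read 4.04 and 5.25 in MOLM13, 12.61 and 12.78 in THP1 and 12.64 and 12.61 in NOMO1. MOLM13 was far below the close values of the other lines, at -8.01 ± 0.29 (adjusted p = 1.18e-08). CLEC2D, a lectin-like receptor, read 8.20 and 7.37 in MOLM13, 2.32 and 2.44 in THP1 and 2.42 and 2.71 in NOMO1, the reverse order, 5.31 ± 0.32 (adjusted p = 4.59e-07) higher. CLEC5A, a myeloid lectin, was measured in NOMO1 only and differed by -0.48 against THP1 (adjusted p = 0.0705) and -9.24 against NOMO1 (adjusted p = 3.82e-10). Of 42 measured genes of Toll-like receptors, inflammasome and NF-kB 14 were lower and 6 higher. LY96, the MD-2 partner of TLR4, was lower at -2.40 against THP1 and -6.49 against NOMO1, and TIRAP, an adaptor of TLR4, at -3.25 ± 0.23. TLR1 stood at -1.04 against THP1 (adjusted p = 0.103) and -4.10 against NOMO1 (adjusted p = 7.02e-05).

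Cytokine genes were 7 lower (17.9%) and 4 higher (10.3%) of 39 measured, both shares under those of all genes. Their median was 0.06 against THP1 and -1.66 against NOMO1. TNF read 10.22 and 9.95 in MOLM13, 4.17 and 4.06 in THP1 and 9.58 and 9.62 in NOMO1. It was alike in MOLM13 and NOMO1 and low in THP1, with 5.97 against THP1 (adjusted p = 3.2e-07) and 0.48 against NOMO1 (adjusted p = 0.26). IL1B read 5.58 and 5.09 in MOLM13, 5.95 and 5.70 in THP1 and 10.43 and 9.89 in NOMO1 and was alike in MOLM13 and THP1, with -0.49 against THP1 (adjusted p = 0.198) and -4.82 against NOMO1 (adjusted p = 6.74e-07). PDGFA, a platelet-derived growth factor, was -3.32 ± 0.18. Of chemokine and G protein-coupled receptors 8 of 42 were lower (19%) and 6 higher (14.3%), both shares under those of all genes. Their median was 0.06 against THP1 and -1.44 against NOMO1. P2RY1, an ADP receptor, and ADORA3, an adenosine receptor, were -5.11 ± 0.12 and -4.48 ± 0.14.

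Interferon response genes were lower in 26 of 55 measured members (47.3%) and higher in 3, with a median of -0.61. IFITM1, a membrane protein that restricts viral entry and has close copies, read 3.40 and 3.41 in MOLM13, 8.06 and 8.69 in THP1 and 8.51 and 8.88 in NOMO1, -5.13 ± 0.16 (adjusted p = 3.91e-09). IFI6 read 4.79 and 5.43 in MOLM13, 9.24 and 9.65 in THP1 and 6.88 and 7.41 in NOMO1, again lowest in MOLM13, -3.18 ± 0.29 (adjusted p = 8.98e-06). IFIT3, an RNA-binding antiviral protein, was -5.04 against THP1 and -1.91 against NOMO1, with its second probe set of the opposite sign. TRIM22, an interferon-induced ubiquitin ligase, went the other way and read 11.62 and 11.43 in MOLM13, 4.54 and 5.64 in THP1 and 9.29 and 9.31 in NOMO1, with differences of 6.44 against THP1 and 2.23 against NOMO1. The other higher members were TRIM5 (1.02) and XAF1 (0.97), named after their values were seen. In the treated arrays 26 members were called lower and 3 higher, with a median of -1.12; IFI6 was not among the calls there.

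Of 17 measured MHC class II genes 6 were lower and 2 higher, with a median of -0.69. That median was -0.0076 against THP1 alone and -2.32 against NOMO1 alone. HLA-DRB1, a class II beta chain with near-identical relatives, read 5.86 and 6.22 in MOLM13, 11.14 and 11.20 in THP1 and 11.42 and 11.28 in NOMO1, -5.22 ± 0.28 (adjusted p = 2.14e-07). HLA-DPA1 and HLA-DPB1 were high in NOMO1 only. HLA-DPA1 differed by -0.82 against THP1 (adjusted p = 0.136) and -8.91 against NOMO1 (adjusted p = 1.08e-07) and HLA-DPB1 by -0.71 against THP1 (adjusted p = 0.298) and -8.20 against NOMO1 (adjusted p = 1.02e-06). HLA-DOB, the inhibitory class II chain, read 7.21 and 7.62 in MOLM13, 2.13 in both THP1 arrays and 2.13 in both NOMO1 arrays, the reverse, 5.28 ± 0.19 (adjusted p = 1.07e-08) higher. Of 24 measured class I and processing genes 8 were lower and 2 higher, with a median of 0.04. PSMB9, an immunoproteasome subunit, and ULBP2, a ligand of the receptor NKG2D, were -1.56 ± 0.13 and -3.03 ± 0.16. MICA, another such ligand, was 1.14 ± 0.09 and TAPBPL, a peptide editor, 0.86 ± 0.13.

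Transcription factors of myeloid cells were 20 lower and 10 higher of 63 measured. ZEB1, a zinc-finger repressor, read 3.77 and 3.37 in MOLM13, 9.27 and 9.24 in THP1 and 9.05 and 8.80 in NOMO1, -5.52 ± 0.12 (adjusted p = 3.65e-10). CEBPE, which drives granulocyte maturation, read 6.29 and 5.73 in MOLM13, 6.71 and 6.95 in THP1 and 10.93 and 10.89 in NOMO1, with -0.83 against THP1 and -4.90 against NOMO1. ID3, an inhibitor of helix-loop-helix factors, was -3.08 ± 0.37. Dendritic cell genes included NRP1, a semaphorin receptor, at -4.96 ± 0.36, and ZBTB46 at -1.53 ± 0.23. CADM1 and BATF3 each separated THP1 from the other lines, CADM1 by 4.29 against THP1 and 0.27 against NOMO1 and BATF3 by -2.90 against THP1 and -0.09 against NOMO1. Adjusted p against NOMO1 was 0.62 and 0.794. With quantile-normalized arrays BATF3, HOXB3, IL1B, TLR1, CLEC5A and HLA-DPB1 kept their sign and an adjusted p under 0.05, but the MOLM13 arrays then overlapped other arrays. Stem and progenitor genes were 6 lower (25%) and 5 higher (20.8%) of 24, near the shares of all genes, among them GPSM1 at -3.08 ± 0.07. Few erythroid, megakaryocyte or mast cell markers were measured (6, 10 and 12). RAB27B, a GTPase of platelet granules, was -4.06 ± 0.08, with -0.92 against THP1 and -7.20 against NOMO1. F13A1, coagulation factor XIII, was -2.28 ± 0.21, with -0.63 against THP1 and -3.93 against NOMO1. For both the gap lay mainly toward NOMO1. BLVRB stood at -0.96 ± 0.13, and SLC25A37, a mitochondrial iron carrier, at 0.95 against THP1 (adjusted p = 0.000588) and 0.41 against NOMO1 (adjusted p = 0.0513).

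Effector enzymes of phagocytes differed as well. Of 10 measured genes of the NADPH oxidase 6 were lower and 1 was higher. CYBB, the catalytic subunit, read 6.17 and 5.56 in MOLM13, 7.95 and 7.54 in THP1 and 13.47 and 13.58 in NOMO1, in the order MOLM13, THP1, NOMO1, -4.77 ± 0.25 (adjusted p = 1.7e-07). NCF4 and RAC1 were -0.92 ± 0.07 and -0.61 ± 0.05, and HVCN1, a proton channel, was the higher one at 1.22 ± 0.13. ALOX5, the 5-lipoxygenase that starts leukotriene synthesis, read 3.40 and 4.00 in MOLM13, 9.86 and 9.96 in THP1 and 10.61 and 10.52 in NOMO1, -6.54 ± 0.15 (adjusted p = 5.03e-10). LTC4S, leukotriene C4 synthase, was -4.00 ± 0.31, and PTGS1, a cyclooxygenase, -2.08 ± 0.14. Without the _x_at, _s_at and _a_at probe sets PTGS1 was -0.76 and not called. PTGES2, a prostaglandin E synthase, was higher by 0.84 ± 0.08. Lysosome genes were lower in 25 of 48 measured members (52.1%) and higher in 6, with a median of -0.48. CTSH, a cathepsin, read 8.27 and 8.26 in MOLM13, 11.54 and 11.67 in THP1 and 11.51 and 11.83 in NOMO1, -3.37 ± 0.15 (adjusted p = 5.55e-08), and CTSO, CTSZ and IDS, iduronate sulfatase, were -3.13 ± 0.26, -1.68 ± 0.44 and -1.99 ± 0.09. In the treated arrays 13 lysosome genes were called lower and 10 higher.

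Kinases of the Src, SYK and BTK families and their phosphatases were 11 lower and 7 higher of 34. LYN, a Src family kinase that binds mutant FLT3, read 12.87 and 12.63 in MOLM13, 11.08 and 11.02 in THP1 and 12.06 and 11.85 in NOMO1, higher in MOLM13 by 1.25 ± 0.10 (adjusted p = 3.04e-06). FYN, another Src kinase, was -2.29 ± 0.13, with the same sign in all 4 of its probe sets. Without the _x_at, _s_at and _a_at probe sets it was -0.31 and not called. FER and PLCG2, phospholipase C gamma 2, were -2.20 ± 0.15 and -1.44 ± 0.08. Among BCL2 family and death receptor genes 9 of 30 were higher and 5 lower. BMF and BAD, both promoters of cell death, were 1.07 ± 0.26 and -1.01 ± 0.20, and TNFRSF10A, the death receptor DR4, 0.89 ± 0.09. TNFRSF10B, the death receptor DR5, read 12.57 and 12.42 in MOLM13, 9.05 and 9.14 in THP1 and 11.55 and 11.40 in NOMO1, in the order THP1, NOMO1, MOLM13, with a difference of 2.21 ± 0.08 (adjusted p = 1.47e-08). MDM2, a ubiquitin ligase, was not called and read 11.82 and 11.56 in MOLM13, 11.42 and 11.43 in THP1 and 12.21 and 11.80 in NOMO1. Its sign depended on the scaling and the probe set.

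Metabolic lists held genes of large difference in both directions. Of 39 measured genes of the unfolded protein and ATF4 responses 12 were higher and 5 lower, with a median of -0.32 against THP1 and 0.48 against NOMO1. CTH, cystathionine gamma-lyase, read 8.18 in both MOLM13 arrays, 5.80 and 5.82 in THP1 and 2.44 and 2.42 in NOMO1, 4.06 ± 0.13 (adjusted p = 5.86e-09) higher. PSAT1, of serine synthesis, was higher by 1.53 ± 0.08, while SLC7A11, the cystine importer, read 7.81 and 8.01 in MOLM13, 10.43 and 10.17 in THP1 and 11.34 and 11.11 in NOMO1, -2.85 ± 0.18 (adjusted p = 5.22e-07). DDIT3, the stress factor CHOP, was -1.92 ± 0.12. Hypoxia and glycolysis genes were 12 higher and 7 lower of 43. EPAS1, the hypoxia factor HIF2A, read 3.83 and 4.18 in MOLM13, 10.23 and 9.95 in THP1 and 6.83 and 7.14 in NOMO1, -4.53 ± 0.24 (adjusted p = 1.96e-07), and P4HA2 and AK4 were -4.51 ± 0.21 and -3.86 ± 0.36. Cholesterol synthesis genes were 5 lower and 0 higher of 22, with a median of -0.14. The share called lower, 22.7%, was near the 21.7% of all genes. Among the 5 were HMGCS1, SC5D and SREBF2 at -0.89 ± 0.09, -0.86 ± 0.08 and -0.80 ± 0.13. STARD4 was at -1.17 against THP1 (adjusted p = 0.000162) and -0.29 against NOMO1 (adjusted p = 0.152).

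The target of the inhibitor used in the series was measured in the parallel DMSO cultures. DNMT1 read 13.38 and 13.47 in MOLM13, 13.31 and 13.25 in THP1 and 13.01 in both NOMO1 arrays and DNMT3B, a de novo methyltransferase, 8.64 and 8.52 in MOLM13, 7.26 in both THP1 arrays and 8.13 and 8.40 in NOMO1 (both named after their values were seen). Both were higher in MOLM13, by 0.28 ± 0.07 (adjusted p = 0.00485) and 0.82 ± 0.09 (adjusted p = 3.18e-05). Of 19 measured genes of DNA methylation 8 were higher and 4 lower. ZBTB38, a zinc-finger protein that binds methylated DNA, read 2.60 in both MOLM13 arrays, 9.93 and 10.00 in THP1 and 9.32 and 8.72 in NOMO1. The MOLM13 arrays held the lowest value of its probe set, -6.89 ± 0.18 (adjusted p = 1.17e-09). HELLS, a remodeller needed for DNA methylation, and ZBTB33, the methyl-CpG reader Kaiso, were higher by 1.55 ± 0.18 and 1.37 ± 0.08. TET1, which oxidises methylcytosine, was -1.26 ± 0.17, and without the _x_at, _s_at and _a_at probe sets -0.67 and not called.

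Among histone modifiers 13 of 62 were higher (21%) and 10 lower (16.1%), beside 20.7% and 21.7% of all genes. SMYD3, a methyltransferase, read 10.64 in both MOLM13 arrays, 13.75 and 13.59 in THP1 and 13.70 and 13.83 in NOMO1, -3.08 ± 0.11 (adjusted p = 9.97e-09). KDM1B, a demethylase, was higher by 1.92 ± 0.18, and KDM4A was -3.18 against THP1 (adjusted p = 1.6e-07) and -0.41 against NOMO1 (adjusted p = 0.0593). PCGF2, a Polycomb protein, was -2.12 ± 0.13, a sign that 1 of its 4 probe sets showed. Of 10 measured germ-cell and piRNA genes GTSF1 was the 1 called. Drug transport and metabolism genes were 10 higher (23.3%) and 12 lower (27.9%) of 43. SLC29A2, a nucleoside transporter, read 8.03 and 8.31 in MOLM13, 2.95 and 2.57 in THP1 and 6.80 and 6.87 in NOMO1, 3.37 ± 0.15 (adjusted p = 4.53e-08) higher. CDA, cytidine deaminase, which inactivates cytidine analogues, read 4.31 in both MOLM13 arrays, 7.68 and 7.67 in THP1 and 9.99 and 10.50 in NOMO1, -4.65 ± 0.14 (adjusted p = 2.72e-09). ABCA1, a lipid exporter, was -3.71 ± 0.35, and GSTM3, a glutathione transferase with close copies, -7.45 ± 0.11. Without the _x_at, _s_at and _a_at probe sets GSTM3 was -0.68 and not called. Of 23 reference genes 3 were higher and 3 lower, with a median of -0.07. They were TFRC (1.66 against THP1 and 0.18 against NOMO1), GUSB (-0.79), VPS29 (-0.59), B2M (-0.33), and, named after their values were seen, GAPDH (0.28) and HPRT1 (0.26). Without the _x_at, _s_at and _a_at probe sets VPS29 (-0.13) and B2M (-0.07) were not called.

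Genes within 1 log2 unit of the floor in both arrays of 1 line and above the overall median of 8.43 in all 4 arrays of the others numbered 42 for MOLM13, 7 for THP1 and 16 for NOMO1. The reverse pattern, above the median in 1 line and near the floor in both others, held for 8 genes in MOLM13, 44 in THP1 and 48 in NOMO1. The 42 genes near the floor in MOLM13 included GTSF1, MARCKS, ANPEP, SPP1, INPP4B, RRAS2, ZBTB38, SERPINE2 and TIMP3, an inhibitor of matrix proteases. The 8 were CCND2, DLX2, ENPP2, HMX2, IGLL1, MTAP, SHISA2 and TPTE2P6. In the other 4 untreated lines of the series 3 of the 42 were near the floor in all, and 2 were above the median in all. Of the 8 genes 0 were near the floor in all of those lines, and 1 was above the median in all.

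The same lines were also measured after GSK3484862, in arrays that the DMSO comparison did not use. There 4731 genes (40.5%) were called by the same rule, 2386 higher (20.4%) and 2345 lower (20.1%). All 12 genes of the largest positive and all 12 of the largest negative differences were called in the same direction. Of all genes called higher in DMSO 1837 of 2417 were called higher again and 1 lower, and of those called lower 1852 of 2539 were called lower again and 7 higher. These are other cultures of the same lines, so they bear on the error of a line's measurement and not on other lines.

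All 42 genes near the floor in untreated MOLM13 were still called lower in treated MOLM13, 33 of them still near the floor in both arrays. GTSF1 averaged 2.30 in DMSO and read 10.73 and 10.75 with GSK3484862, and was the 1 of the 42 above the median in both arrays. ANPEP read 9.05 and 8.36 in treated MOLM13, above the median in their mean, and FBN2 and GALNT12 were the others whose mean was at least 2-fold higher than in DMSO. S100A9, which was not among the 42, read 11.11 and 11.31 in treated MOLM13. MARCKS stayed at 2.14 and 2.13. FLT3 read 11.37 and 11.57 in treated MOLM13, and its difference from the other lines, 3.25 ± 0.21 there, was close to that in DMSO.

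**Figure D5:**
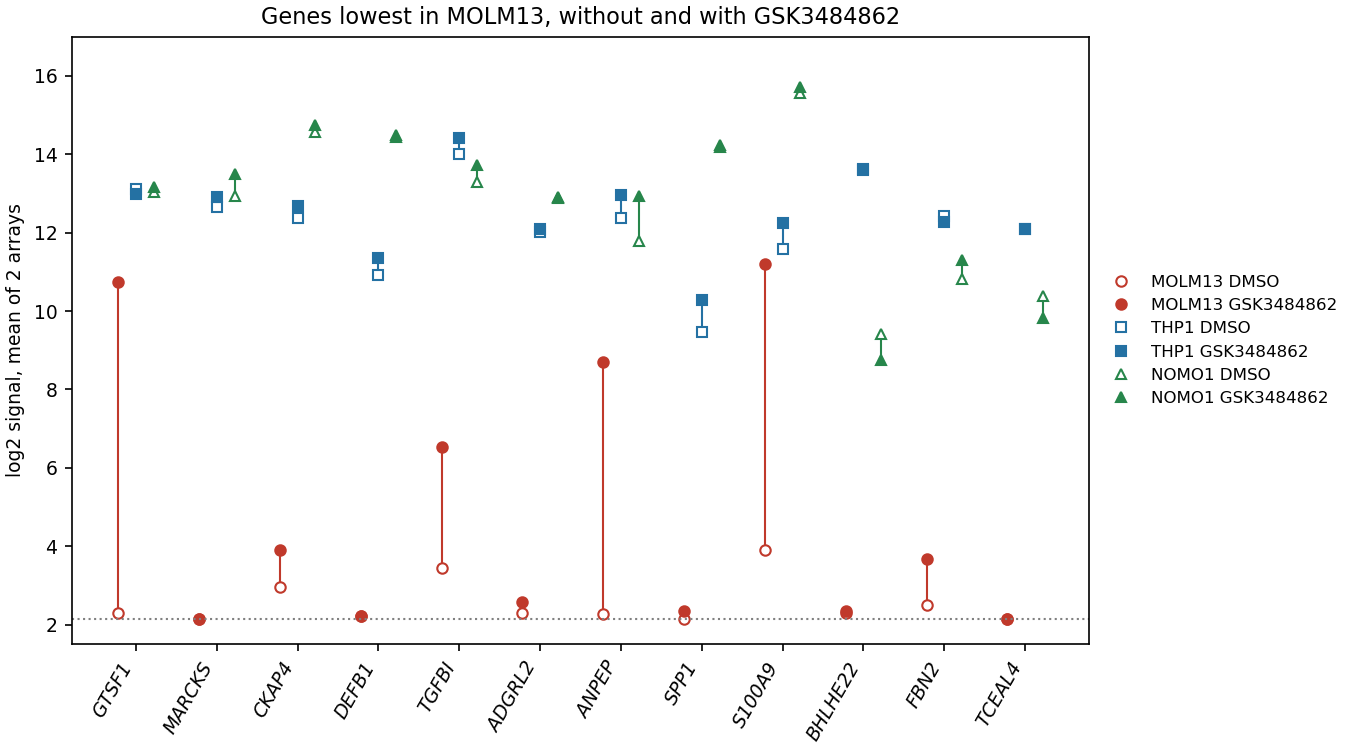
Mean log2 signal of 2 arrays in DMSO (open) and with GSK3484862 (filled) for the 12 genes with the largest negative differences, in MOLM13 (circles), THP1 (squares) and NOMO1 (triangles), with the floor of 2.13 dotted. GTSF1, TGFBI, ANPEP and S100A9 had a higher signal in treated MOLM13, and MARCKS, DEFB1, SPP1, BHLHE22 and TCEAL4 stayed near the floor.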

How the data were processed

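RNA of MOLM13, THP1 and NOMO1, grown for 96 hours in vehicle (0.1% DMSO) or in GSK3484862 at 1 µM, was measured in duplicate. The authors deposited log2 values for 27306 probe sets per array, used as they stood; how background, summarisation, normalization and filtering were handled is not given in the sources used here. The submitters' processing notes name limma. Gene names came from the platform annotation, with 1 symbol for 22580 probe sets, several for 1098 and none for 3628. Each gene was represented by the probe set of highest mean over all 28 arrays.

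Tests used limma (version 3.58.1, R 4.3.3) in 1 fit of the 14 DMSO arrays in 7 lines (7 residual and 2.33 prior degrees of freedom), two-sided, with Benjamini-Hochberg adjustment over 11676 genes. The treated arrays were fitted alike, and the change of a difference with treatment in all 28. In simulated data of 11676 genes, 53 of 100 genes planted at a difference of 0.5 and 85 of 100 at 1 were recovered, with 5 false calls. There MOLM13, THP1 and NOMO1 shared 1 mean per gene, the planted genes were not of low signal, and the noise had no floor. The recovery thus does not describe genes near the floor or genes that differ between THP1 and NOMO1. The comparison, 45 lists (1248 of 1668 genes measured), tests and alternatives were chosen with earlier results of these data known. Named were the 12 largest called differences each way, up to 4 called members per list, and FLT3, KMT2A, MLLT3, MEIS1, PBX3, CDKN1A, MDM2, CDKN2A, SOCS2, PIM1, CISH, DUSP6, SPRY2, SPRY4, ETV5, MPO, CD14 and LYZ (HOXA9, CD33 and CD34 were not analysed here, and 1 list is not reported here). Promoter windows and the gene order on chromosome 9 came from RefSeq tables for GRCh38.p14; the array files give no coordinates. Alternatives were quantile normalization, centring, a filter on low signal, other probe set rules, eBayes with trend and robust options, other samples in the fit, each line alone, a replicate block, line means as units, each array left out, and other thresholds.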

Additional observations from a re-analysis of the deposited data

Results flagged for a closer look

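For 9 of the 24 genes with the largest differences, the difference between MOLM13 and the other lines itself differed between the GSK3484862 and DMSO arrays (interaction in limma over all 28 arrays, adjusted over 11676 genes). The genes were chosen on the DMSO arrays that this test shares, so the sizes lean toward a smaller difference in the treated arrays. How many of all 11676 genes passed the same test was not counted, so the 9 cannot be set against a share of all genes. Of those lower in MOLM13, GTSF1 changed by 8.45 (adjusted p = 8.73e-17), S100A9 by 6.89 (adjusted p = 6.84e-07), ANPEP by 5.60 (adjusted p = 5.33e-09), TGFBI by 2.67 (adjusted p = 0.0187) and BHLHE22 by 0.36 (adjusted p = 0.00946). For the first 4 the gap was smaller in the treated arrays because the signal in MOLM13 was higher there, 10.73 and 10.75, 11.11 and 11.31, 9.05 and 8.36 and 6.74 and 6.32. For BHLHE22 it was the NOMO1 signal that was lower, 8.76 on average after treatment. Of those higher in MOLM13, IGLL1 changed by -2.80 (adjusted p = 3.56e-05), ENPP2 by -1.99 (adjusted p = 9.38e-06) and ZNF185 by -0.95 (adjusted p = 0.0127). KLHL9 changed by 0.62 (adjusted p = 0.00659). In treated MOLM13 the IGLL1 signal was lower than in DMSO, at 6.34 and 7.57, and that of ENPP2 as well, at 10.49 and 10.91. For ZNF185 the THP1 mean was higher, 5.78, and for KLHL9 the NOMO1 mean was lower, 2.81. The difference kept its sign in the treated arrays for all 9 genes.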

How the results depend on the processing

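The 4956 calls numbered 4981 under quantile normalization (2712 higher, 2269 lower), 4929 with centred arrays (2728 and 2201), 4891 in a fit of the 6 arrays and 5009 in a fit of all 28. Of the main calls 4625, 4618, 4775 and 4895 kept call and direction under these. Leaving out single arrays gave 4702 to 5118 calls, 2241 to 2504 higher and 2461 to 2637 lower, and 166 of the 168 called named genes kept their call throughout, SPRY4 and CTSZ being the exceptions. In the treated arrays the range was 4501 to 4784. With the replicate number as a block 4917 genes were called, 4901 of them main calls. The numbers do not pair the samples: deviations correlated above 0.1 in 2 of 21 pairs of lines, with a range of -0.156 to 0.239. At a 2-fold limit 2036 genes were called, 750 higher and 1286 lower. With no demand on overlap 3922 were lower, and against THP1 alone 3820.

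With the line mean as the unit, 1 line against 2, limma called 0 genes, 0 higher and 0 lower, and 480 had an unadjusted p under 0.05. The calls thus concern these lines as cultured here. Signs turned for genes that lay between the other lines or whose probe sets disagree, and beyond those constructions the cause was not tested. Against NOMO1 alone these were KMT2A (0.46), PBX3 (0.62), ETV5 (-0.50), MPO (-1.88) and LYZ (-0.13), and against THP1 alone PIM1 (1.34) and MDM2 (0.27). With the mean of all probe sets KMT2A was 0.23 and MDM2 0.11. Without the _x_at, _s_at and _a_at probe sets MDM2 was 0.75 and FGFR1 0.57. MDM2 was 0.037 with centred arrays and ranged from -0.16 to 0.11 without single arrays. Signal near the floor limits the size of the largest differences and the order among genes there.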

Other observations

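MTAP and KLHL9, both among the largest differences, are neighbours, so the measured genes around MTAP on chromosome 9 were read in order, a choice made after the values were seen. From FOCAD to the last gene read, beyond IFT74, the NOMO1 arrays were at or near the floor, so no end of the stretch was found on that side: FOCAD, which acts in focal adhesion, was 2.13 in both arrays, HACD4 2.13 and 2.57, CAAP1 2.48 in both, PLAA, a ubiquitin-binding protein, 2.14 and 2.18, and IFT74, of ciliary transport, 2.13 in both. Above the floor in that stretch were KLHL9 and MTAP, slightly, and CDKN2A, at 5.50 and 5.10, the low end of its probe set. THP1 was low for KLHL9 and MTAP and measured for FOCAD (10.2 and 10.3) and CAAP1 (11.8 and 11.9). MOLM13 was measured for FOCAD (8.65 and 8.63), HACD4 (9.35 and 9.38), CAAP1 (12.0 in both) and PLAA (11.0 in both), and low for TUSC1 (3.78 and 3.16). CDKN2A read about the same in all 6 arrays, 5.10 to 5.54, on a probe set whose partner had the opposite sign. The DMSO arrays of the other lines of the series ranged from 5.15 to 12.4 on it. On the flanks, RPS6, a ribosomal protein, was high in all 6 arrays and MOB3B, beyond IFT74, near the floor in all 6. MOB3B reached 7.89 in the other lines of the series. ACER2 read 2.82 and 2.77 in NOMO1. DENND4C read 4.66 and 5.43 in MOLM13 and was called lower there, at -3.79 ± 0.19. DNA copy number was not measured.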
